A study of Mus musculus with 8 samples.

Results

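The genes described here mark T cells and natural killer (NK) cells, and were measured by RNA-seq in cartilage of the mouse knee. They are 10 of the 50462 gene identifiers in the table and were chosen by name: Cd3d, Cd3e and Cd3g of the T cell receptor complex, the coreceptor genes Cd4, Cd8a and Cd8b1, and the cytotoxic lymphocyte genes Nkg7, Gzma, Gzmb and Ncr1. All 10 were found by their Ensembl identifier and all 10 passed the filter on low counts. The libraries came from wild-type male C57BL/6J mice, 1 mouse each, from cartilage caps of the medial side of the knee. A group of 4 naive mice had no surgery and was sampled at day 0, aged 11 weeks. A group of 4 DMM mice had the medial meniscus of the left knee destabilised (DMM) by cutting the ligament that holds it, and was sampled at day 42, aged 17 weeks. There was no sham-operated group in these 8 libraries, so the effect of surgery and that of being 6 weeks older cannot be told apart. Total estimated counts lay between 12479443 and 16548002 per library.

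A T cell recognises antigen with a receptor whose variable chains cannot signal on their own. The receptor reaches the cell surface together with the CD3 gamma, delta, epsilon and zeta chains, which carry the signalling motifs. CD4 and CD8 bind the molecules that present antigen and divide T cells into helper and cytotoxic lineages. Cytotoxic T cells and NK cells kill by releasing granules that hold granzymes, and NK cells sense targets with germline-encoded receptors such as the product of Ncr1. Articular cartilage has no blood vessels and is built by chondrocytes.

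The 3 CD3 genes lie next to each other on chromosome 9 of GRCm38. Cd3g (ENSMUSG00000002033) spans chr9:44969572-44980431 on the minus strand, Cd3d (ENSMUSG00000032094) chr9:44981786-44987339 on the plus strand and Cd3e (ENSMUSG00000032093) chr9:44998740-45009627 on the minus strand. Cd8b1 (ENSMUSG00000053044, chr6:71322788-71337494) and Cd8a (ENSMUSG00000053977, chr6:71373427-71379173) are neighbours on the plus strand of chromosome 6, which also carries Cd4 (ENSMUSG00000023274, chr6:124864692-124888221, minus strand). Nkg7 (ENSMUSG00000004612, chr7:43437073-43438249) and Ncr1 (ENSMUSG00000062524, chr7:4337724-4345164) lie on the plus strand of chromosome 7. Gzma (ENSMUSG00000023132, chr13:113093825-113100981) and Gzmb (ENSMUSG00000015437, chr14:56258838-56262260) are both on the minus strand.

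The sequences just upstream of the start site are given for the 4 cytotoxic genes, which share a motif there, and for Cd3d and Cd3g, which point away from each other and had log2 fold changes of opposite sign. They were read 5′ to 3′ on the strand of each gene from RefSeq promoters of build GRCm38.p6, and capitals mark the motifs found on either strand.

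Nkg7: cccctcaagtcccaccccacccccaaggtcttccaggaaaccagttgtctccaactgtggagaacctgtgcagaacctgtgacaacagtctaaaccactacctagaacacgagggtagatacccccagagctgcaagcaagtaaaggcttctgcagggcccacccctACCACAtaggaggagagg
Gzma: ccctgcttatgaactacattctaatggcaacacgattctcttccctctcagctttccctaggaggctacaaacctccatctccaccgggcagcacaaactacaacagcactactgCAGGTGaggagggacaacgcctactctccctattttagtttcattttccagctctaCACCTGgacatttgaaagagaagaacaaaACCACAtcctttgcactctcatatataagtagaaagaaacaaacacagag
Gzmb: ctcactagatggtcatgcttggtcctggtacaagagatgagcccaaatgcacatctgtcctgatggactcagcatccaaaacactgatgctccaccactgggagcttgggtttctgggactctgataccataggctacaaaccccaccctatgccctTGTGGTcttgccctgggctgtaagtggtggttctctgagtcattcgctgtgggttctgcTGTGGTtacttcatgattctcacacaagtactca
Ncr1: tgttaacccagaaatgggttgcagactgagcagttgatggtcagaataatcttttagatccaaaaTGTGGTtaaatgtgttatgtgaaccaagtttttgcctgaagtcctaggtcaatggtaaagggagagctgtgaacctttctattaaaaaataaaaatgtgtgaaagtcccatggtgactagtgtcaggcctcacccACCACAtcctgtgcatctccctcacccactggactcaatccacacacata
Cd3d: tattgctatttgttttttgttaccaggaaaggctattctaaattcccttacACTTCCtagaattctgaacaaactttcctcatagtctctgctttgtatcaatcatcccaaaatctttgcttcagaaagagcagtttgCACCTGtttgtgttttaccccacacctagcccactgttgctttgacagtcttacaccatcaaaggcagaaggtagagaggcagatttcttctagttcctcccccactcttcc
Cd3g: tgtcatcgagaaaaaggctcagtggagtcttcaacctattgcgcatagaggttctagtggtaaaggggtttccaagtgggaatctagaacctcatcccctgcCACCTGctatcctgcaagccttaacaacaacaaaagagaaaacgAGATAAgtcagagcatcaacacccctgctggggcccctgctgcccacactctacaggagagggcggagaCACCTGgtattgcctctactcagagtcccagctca

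These stretches cover chr7:43436888-43437072 (Nkg7), chr13:113100982-113101231 (Gzma), chr14:56262335-56262584 (Gzmb), chr7:4337474-4337723 (Ncr1), chr9:44981536-44981785 (Cd3d) and chr9:44980432-44980681 (Cd3g). The search used 250 bases upstream of each RefSeq start, and the Nkg7 sequence is printed only as far as the start of its GENCODE gene model. Motifs were searched on both strands as TGTGGT for the core bound by RUNX factors, GGAAGT for ETS factors, AGATAA for GATA factors, CACCTG for an E-box, TTGCNNAA for C/EBP factors and TATAAA for a TATA box. The RUNX letters occurred in 14.0% of 32536 promoters of this length, the ETS letters in 19.8%, the GATA letters in 9.97%, the E-box in 17.3%, the C/EBP letters in 9.57% and the TATA box in 12.3%. The RUNX letters were in the windows of all 4 cytotoxic genes, with distances counted from the RefSeq start. They began 83 bases before that of Nkg7, 50 before that of Gzma, 93 and 34 before that of Gzmb, and 185 and 50 before that of Ncr1. For Nkg7 this start lies downstream of the GENCODE start, as the searched window ran to chr7:43437137. For Gzmb it lies upstream of the GENCODE start, as the window reached only down to chr14:56262335. The window of Cd3d held 1 ETS match and 1 E-box, and that of Cd3g held 1 GATA match and 2 E-boxes. A match is a description of the letters and does not show that a factor bound.

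Of the 10 genes, Cd3d and Nkg7 were lower in DMM cartilage and the other 8 did not pass the test. Across all 17760 genes tested, 13.7% were called, with 7.75% of the tested genes higher and 5.92% lower in DMM cartilage. The split of higher and lower calls was 1377 and 1052, and 2030 and 489 when libraries were scaled by their total count. Calling required a DESeq2 p, adjusted over all genes by the Benjamini-Hochberg method, of at most 0.05 together with at least a 1.5-fold change (0.58 on the log2 scale). The median log2 fold change was -0.37 for the 10 genes and -0.02 for all genes tested, and 3 of the 10 had a positive value. Naive and DMM values did not overlap for Nkg7 and Gzmb, 2 of the 10, beside 22.2% of all genes tested. These are bulk libraries, in which fewer cells of a type and less RNA per cell cannot be told apart.

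**Figure D1:**
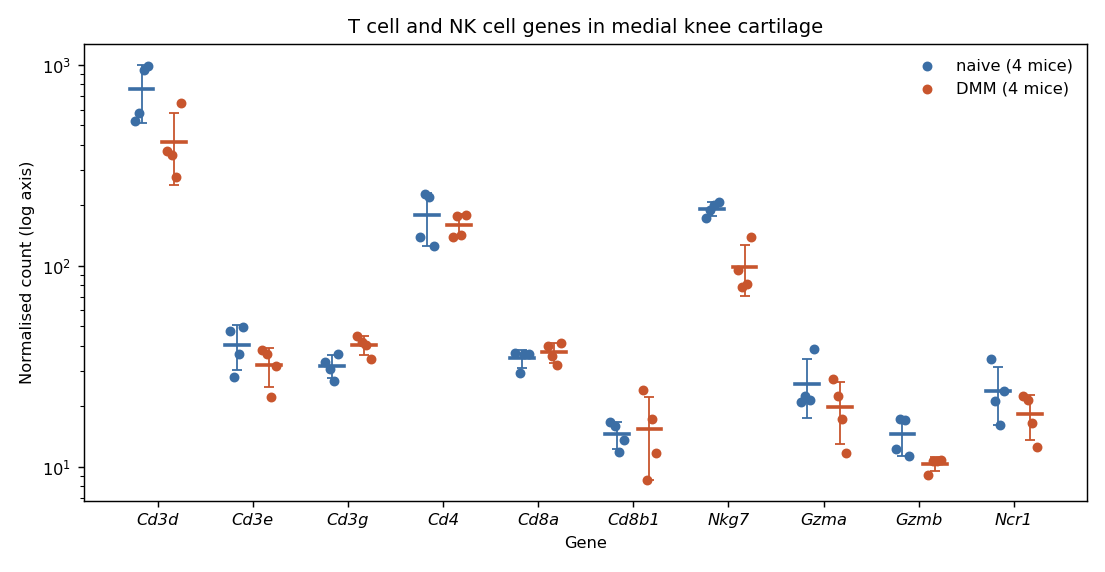
Normalised counts (log axis) of the 10 T and NK cell genes in 4 naive (blue) and 4 DMM (orange) mice, with a point per mouse, the group mean as a wide bar and the SD as whiskers. The naive points of Nkg7, from 172.4 to 208.6, all lie above the DMM points, from 78.5 to 139.0, while the groups of most other genes overlap.

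Of the 3 CD3 genes, Cd3d was lower in DMM mice, and Cd3e and Cd3g did not pass the test. Cd3d, which encodes the delta chain, had normalised counts of 526.8, 573.4, 946.1 and 991.0 in naive mice and 372.4, 356.9, 275.8 and 646.2 in DMM mice. Naive mice 3 and 4 were far above naive mice 1 and 2, and DMM mouse 4 lay above both of the lower naive mice, so the groups overlapped. The mean was 759 ± 243 (SD, n = 4) in naive mice and 413 ± 161 (SD, n = 4) in DMM mice, 1.84-fold lower (log2 fold change -0.88, SE 0.27, DESeq2 adjusted p = 0.00915). The call was lost with edgeR's quasi-likelihood test (adjusted p = 0.0571), with limma-voom (adjusted p = 0.0524) and without naive mouse 3 (DESeq2 adjusted p = 0.0502). None of the 8 Cd3d values in the table was a whole number of counts, which also held for Cd4, Cd8a and Cd8b1. Of the 31-base words of Cd3d transcripts, 3.1% also occur in other genes, 1324 genes in all. This share was 8.4% for Cd8b1 and 2.72% for Cd3e, so neither trait is particular to Cd3d. The genes closest in pattern to Cd3d over the libraries included Sh2d1a, an adapter gene of T and NK cells (Pearson r = 0.993). Genes with no known role in T cells were also close, such as the odorant receptor genes Olfr788 (r = 0.985) and Olfr1039 (r = 0.983). Whether the Cd3d counts came from T cell RNA was not tested, and the lower value is given for this gene alone.

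Cd3e encodes the epsilon chain, which pairs with the delta and the gamma chain. It had normalised counts of 47.5, 27.9, 36.4 and 49.9 in naive mice and 38.1, 36.5, 22.2 and 31.6 in DMM mice, with overlapping groups. The log2 fold change was -0.34 (95% interval -0.95 to 0.26, DESeq2 adjusted p = 0.482). An exon of Cd3e overlaps the gene Gm48719 on the opposite strand, and the sources do not say whether strand was used in counting.

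Cd3g encodes the gamma chain, which takes the place of the delta chain in the other of the receptor's CD3 pairs. Its normalised counts were 33.4, 30.6, 26.8 and 36.3 in naive mice and 44.8, 41.9, 40.3 and 34.3 in DMM mice. DMM mice 1, 2 and 3 were above all naive mice and DMM mouse 4 was below naive mouse 4. The log2 fold change was 0.34 (95% interval -0.19 to 0.88, DESeq2 adjusted p = 0.411). This interval did not overlap with that of Cd3d (-1.41 to -0.35), and the difference between the genes was not tested.

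Per kilobase of transcript, Cd3d stood far above its partners in every library. Normalised counts per kilobase were 470 ± 150 (SD, n = 4) for Cd3d, 31 ± 3.97 for Cd3g and 27.7 ± 6.97 for Cd3e in naive mice, and 255 ± 99.7, 39.4 ± 4.33 and 22 ± 4.9 in DMM mice. The level of Cd3d was 8.83 to 23.5 times that of Cd3e over the 8 libraries. The level of Cd3e was 0.386 to 0.994 times that of Cd3g. The Cd3d level was highest in the naive mice 3 and 4 and in DMM mouse 4, whereas Cd3e was highest in naive mice 4 and 1 and Cd3g in DMM mice 1 and 2.

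**Figure D2:**
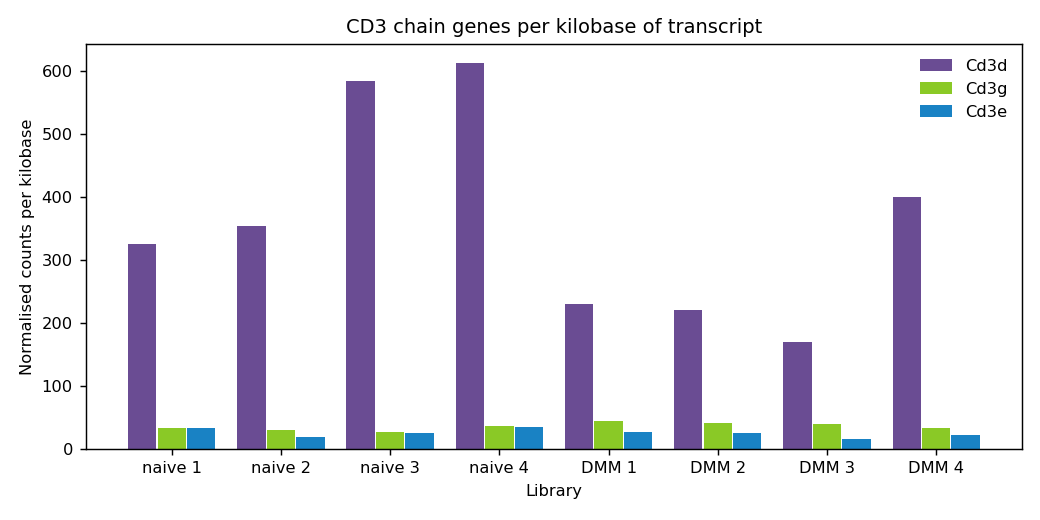
Normalised counts per kilobase of the longest coding transcript for Cd3d, Cd3g and Cd3e in each of the 8 libraries, with a bar per gene and library. Cd3d bars range from 171 to 613, and Cd3e bars do not exceed 34.1.

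The zeta chain and the constant regions of the receptor itself gave another view of T cell RNA. Of the 8 receptor chain genes, 0 were called by DESeq2, edgeR or limma-voom, and of the 5 that received an adjusted p, 0 had an unadjusted DESeq2 p under 0.05. Cd247, which encodes the zeta chain, had normalised counts of 90.6, 43.9, 56.7 and 63.5 in naive mice and 72.1, 78.5, 48.6 and 49.6 in DMM mice (log2 fold change -0.05, DESeq2 adjusted p = 0.936). For Cd247, 57.69% of the 31-base words also occur in other genes, so its estimated counts are uncertain.

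Trac, the constant region of the alpha chain, had 18.1 ± 2.07 (SD, n = 4) normalised counts in naive mice and 22.1 ± 6.92 in DMM mice (log2 fold change 0.29, DESeq2 adjusted p = 0.656). Trbc1 and Trbc2, the near-identical constant regions of the beta chain, had log2 fold changes of 0.11 and -0.17 (DESeq2 adjusted p = 0.91 and 0.874), and reads can be split between them. Trdc, the constant region of the delta receptor chain of gamma-delta T cells, had 8.8, 12.0, 13.9 and 14.7 in naive mice and 18.2, 17.2, 22.2 and 15.3 in DMM mice. All DMM mice were above all naive mice for Trdc, and the gene did not pass the test (log2 fold change 0.58, 95% interval -0.24 to 1.39, DESeq2 adjusted p = 0.352). Such a lack of overlap was seen for 22.2% of all genes tested. Trdc had 9.1 to 27.1 estimated counts per library, and its exons overlap the genes Gm43434 and Trdv5 on the opposite strand.

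The gamma chain constant regions Tcrg-C1, Tcrg-C2 and Tcrg-C4 had at most 10.6 normalised counts in any library and received no adjusted p. The median log2 fold change of the 5 tested chain genes was 0.11, beside -0.02 for all genes tested. Summed over the 8 chain genes, the level was 6.92 to 12.1 CPM (counts scaled to the library total) in naive mice and 8.41 to 12.9 in DMM mice, which overlapped.

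**Figure D3:**
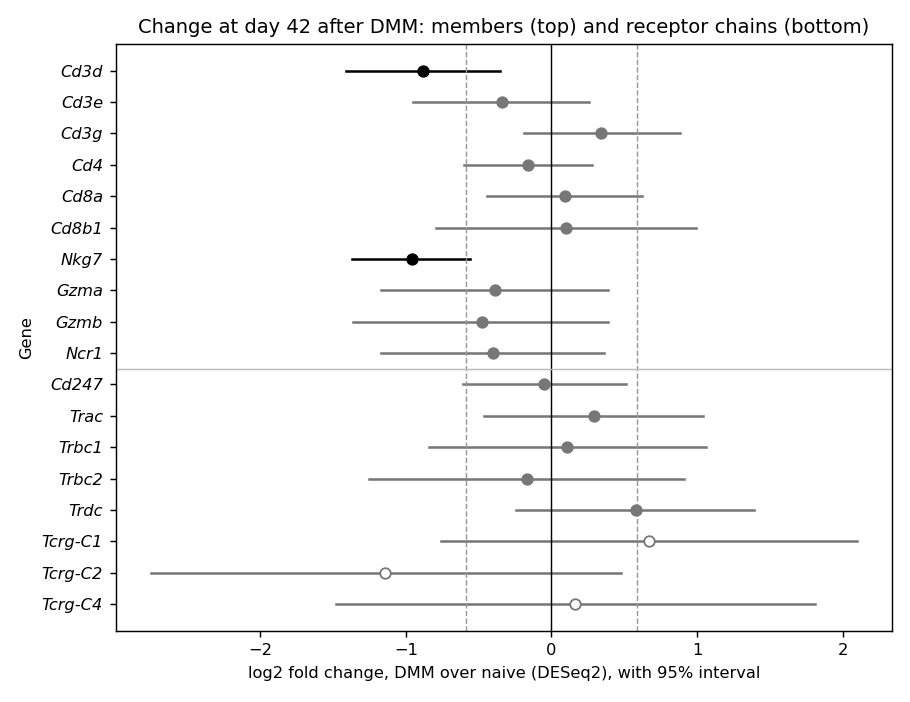
Log2 fold change (DMM over naive, DESeq2) with its 95% interval for the 10 T and NK cell genes (above the grey line) and the 8 receptor chain genes (below it), with called genes in black and genes without an adjusted p as open circles. Dashed lines mark the 1.5-fold threshold. Cd3d at -0.88 and Nkg7 at -0.96 are the called genes, and the intervals of the receptor chains all include 0.

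Of the 3 coreceptor genes, 0 were called by DESeq2, edgeR or limma-voom, and 0 had an unadjusted DESeq2 p under 0.05. Cd4 marks helper T cells and is also expressed by some myeloid cells. Its normalised counts were 138.9, 227.5, 220.5 and 125.9 in naive mice and 138.5, 177.4, 143.2 and 179.6 in DMM mice, where the DMM values lay inside the naive range. The log2 fold change was -0.16 (95% interval -0.60 to 0.28, DESeq2 adjusted p = 0.692), and its sign turned with total count scaling (0.01).

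Cd8a and Cd8b1 encode the alpha and the beta chain of CD8. Cd8a had 36.9, 29.3, 36.4 and 36.3 normalised counts in naive mice and 39.8, 35.5, 32.1 and 41.5 in DMM mice (log2 fold change 0.09, 95% interval -0.44 to 0.62, DESeq2 adjusted p = 0.857). Cd8b1 had 16.7, 16.0, 11.8 and 13.6 in naive mice and 24.0, 8.6, 17.3 and 11.7 in DMM mice (log2 fold change 0.10, 95% interval -0.79 to 0.99, DESeq2 adjusted p = 0.914). The DMM values of Cd8b1 spread more widely than the naive ones, the sign turned without DMM mouse 1 (-0.20), and 8.4% of its 31-base words also occur in other genes. Per kilobase, the level of Cd8a was 0.785 to 1.96 times that of Cd8b1, and the level of Cd4 was 3.49 to 7.82 times that of Cd8a.

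Among the cytotoxic genes, Nkg7 was 1.95-fold lower in DMM cartilage. NKG7 is a membrane protein of cytotoxic granules. Its normalised counts were 172.4, 188.9, 200.1 and 208.6 in naive mice and 95.4, 78.5, 81.5 and 139.0 in DMM mice. All DMM mice were below all naive mice, with DMM mouse 4 nearest to them. The mean was 193 ± 15.7 (SD, n = 4) in naive mice and 98.6 ± 27.9 (SD, n = 4) in DMM mice (log2 fold change -0.96, SE 0.21, DESeq2 adjusted p = 7.48e-05), and Nkg7 was called in all 8 fits that left out a library. It was also called by edgeR and by limma-voom, and not with size factors taken from pan-leukocyte genes (log2 fold change -0.46, adjusted p = 0.103). None of the 31-base words of Nkg7 occur in another gene.

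The 3 other cytotoxic genes had few counts and negative log2 fold changes that did not pass the test. Gzma, which encodes granzyme A, had 21.1, 22.6, 21.4 and 38.6 normalised counts in naive mice and 27.4, 22.6, 17.3 and 11.7 in DMM mice (log2 fold change -0.39, 95% interval -1.17 to 0.39, DESeq2 adjusted p = 0.545). Naive mouse 4 was the highest, and the other naive mice lay within the DMM range.

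Gzmb, which encodes granzyme B, had 12.3, 17.3, 17.1 and 11.3 normalised counts in naive mice and 9.1, 10.7, 10.7 and 10.8 in DMM mice. The groups did not overlap on this scale, whereas the estimated counts before scaling were 10 to 16 in naive mice and 10 to 13 in DMM mice. The log2 fold change was -0.48 (95% interval -1.36 to 0.39, DESeq2 adjusted p = 0.498), and an interval that wide allows both a loss and a gain at this depth.

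Ncr1, which encodes the NK cell receptor NKp46, had 34.3, 21.3, 16.1 and 23.8 normalised counts in naive mice and 22.4, 21.5, 16.5 and 12.6 in DMM mice, with overlapping groups. The log2 fold change was -0.40 (95% interval -1.17 to 0.36, DESeq2 adjusted p = 0.523). Summed over the 4 cytotoxic genes, the level was 14.9 to 19.6 CPM in naive mice and 9.25 to 13.3 CPM in DMM mice, and Nkg7 made up most of it.

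Compared per kilobase, the 10 genes fell into a few steps. Cd3d was highest in both groups, followed by Nkg7 with 219 ± 17.8 (SD, n = 4) in naive mice and 112 ± 31.7 in DMM mice, and by Cd4 with 57.3 ± 17.1 and 51.4 ± 7.02. The ranges over mice of these 3 genes did not overlap with those of the gene next in order, in either group. Below them, Gzma (26 and 19.8 normalised counts per kilobase in naive mice and DMM libraries), Ncr1 (16 and 12.2), Cd8a (11.1 and 11.9), Gzmb (10.1 and 7.21) and Cd8b1 (9.79 and 10.4) overlapped with their neighbours in both groups. Cd3g and Cd3e overlapped in naive mice and not in DMM mice.

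All 10 genes together held 68.8 to 107 CPM in naive mice and 48.2 to 85.3 CPM in DMM mice, with overlapping groups. Without Cd3d and Nkg7, the other 8 genes held 23.2 to 26.8 CPM in naive mice and 22 to 26.5 CPM in DMM mice.

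Of 20 genes of receptor signalling and costimulation, which act with the members in T cells, 17 were tested, 2 were higher, 1 was lower and 14 were not called, so 17.6% were called beside 13.7% of all genes, with a median log2 fold change of -0.13. Thy1, the surface protein Thy-1 of T cells that fibroblasts also carry, had 164.4, 174.3, 169.1 and 215.4 normalised counts in naive mice and 432.1, 261.2, 514.5 and 287.0 in DMM mice (log2 fold change 1.05, SE 0.22, DESeq2 adjusted p = 7.85e-05). Cd28, the main costimulatory receptor of T cells, had 33.4, 49.2, 56.7 and 46.5 in naive mice and 74.6, 96.7, 70.0 and 103.8 in DMM mice (log2 fold change 0.90, SE 0.25, DESeq2 adjusted p = 0.00348). All DMM mice were above all naive mice for both genes, and both were called in all 8 fits that left out a library.

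Lat, a scaffold of receptor signalling that mast cells and platelets also use, had 204.0, 214.2, 120.9 and 132.7 normalised counts in naive mice and 119.4, 98.9, 116.9 and 83.0 in DMM mice (log2 fold change -0.68, SE 0.23, DESeq2 adjusted p = 0.0202). The naive mice 1 and 2 were well above the rest, and naive mouse 3 lay just above DMM mouse 1. Lat was the 1 gene of this list that was called lower. Its call was lost with edgeR (adjusted p = 0.0509), with limma-voom (adjusted p = 0.0626) and with total count scaling. The call was also lost without any 1 of naive mouse 1, naive mouse 2, DMM mouse 2 or DMM mouse 4. Lcp2 (log2 fold change -0.53, DESeq2 adjusted p = 0.000344) and Ubash3a (-0.57, DESeq2 adjusted p = 0.00147) were lower too and missed only the fold threshold.

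Of 10 T cell transcription factor genes, all were tested, 2 were higher and 8 were not called, so 20% were called beside 13.7% of all genes. The median log2 fold change was 0.44. Tcf7, a factor of early and naive T cells that also acts in Wnt signalling, had 146.0, 145.0, 96.3 and 137.2 normalised counts in naive mice and 242.2, 238.6, 206.6 and 187.7 in DMM mice (log2 fold change 0.74, SE 0.18, DESeq2 adjusted p = 0.000614). Its relative Lef1 had 287.6, 327.3, 233.3 and 234.7 in naive mice and 709.1, 420.3, 506.3 and 509.0 in DMM mice (log2 fold change 0.99, SE 0.19, DESeq2 adjusted p = 6.17e-06). For both factors every DMM mouse was above every naive mouse. Both are also transcribed in skeletal cells. Exons of Lef1 overlap the gene Gm43352 on the opposite strand, and 14.64% of its 31-base words also occur in other genes. Zbtb7b and Runx3, which direct the helper and the cytotoxic lineage, had log2 fold changes of -0.11 and -0.13 (DESeq2 adjusted p = 0.619 and 0.569).

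Of 20 genes of NK cell receptors and cytotoxic effectors, 11 were tested, 0 were higher, 2 were lower and 9 were not called by DESeq2. Thus 18.2% were called beside 13.7% of all genes, with a median log2 fold change of -0.36. Cst7, which encodes the granule protease inhibitor cystatin F, had 156.5, 125.1, 168.0 and 165.5 normalised counts in naive mice and 42.3, 76.3, 74.1 and 106.5 in DMM mice (log2 fold change -1.04, SE 0.26, DESeq2 adjusted p = 0.000663). As for Nkg7, all DMM mice were below all naive mice and DMM mouse 4 was the nearest to them. Klre1, an NK cell lectin-like receptor, had 102.0, 121.1, 222.6 and 239.2 in naive mice and 58.9, 88.1, 46.9 and 148.9 in DMM mice, with overlapping groups (2-fold lower, SE 0.37 on the log2 scale, DESeq2 adjusted p = 0.0331). The calls of Lat, Cst7 and Klre1 were lost with pan-leukocyte size factors, and that of Klre1 also with edgeR (adjusted p = 0.0966), with limma-voom (adjusted p = 0.0897), with total count scaling, with no filter on low counts and in 5 of the 8 fits that left out a library (without naive mouse 3 or 4, or DMM mouse 1, 2 or 3). Il2rb, the beta chain of the interleukin-2 receptor, showed a difference of -0.48 on the log2 scale (DESeq2 adjusted p = 0.209).

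**Figure D4:**
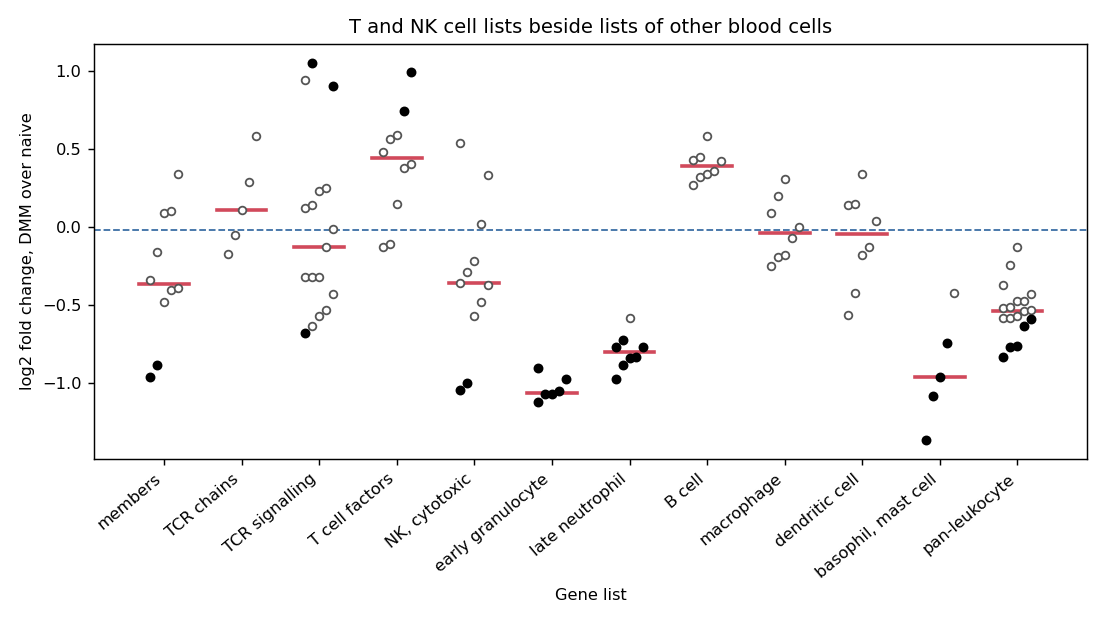
Log2 fold change (DMM over naive, DESeq2) of each tested gene in 12 lists, with called genes filled, the list median as a red bar and the median of all genes tested as a dashed line. The early granulocyte and late neutrophil lists lie between -1.12 and -0.58, the B cell list lies above 0, and the T and NK cell lists spread across 0.

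Most tested genes of the granulocyte, basophil and mast cell, and erythroid lists were called lower in DMM mice by DESeq2. Of the summed levels of these lists, only that of the early granulocyte list did not overlap between the groups. The early granulocyte list (Mpo, Elane, Prtn3, Ctsg, Ms4a3 and Cebpe) was lower in DMM mice for 6 of 6 genes, with a median log2 fold change of -1.06, and its summed level was 1631.7 to 1935.8 CPM in naive mice and 654 to 1457.3 CPM in DMM mice. None of these 6 genes, nor any of the late neutrophil and erythroid lists, was at 0 in any library, and of the mast cell genes Mcpt4 was at 0 in DMM mice 2 and 4. The late neutrophil list was lower for 7 of 8 genes (median -0.80) with a summed level of 7396.3 to 10784.3 CPM in naive mice and 3646.4 to 7594.6 CPM in DMM mice. The basophil and mast cell list was lower for 4 of the 5 tested genes (median -0.96) with a summed level of 68.7 to 98.6 CPM in naive mice and 47.8 to 68.8 CPM in DMM mice. The erythroid list was lower for 7 of 8 genes (median -0.99), with 10724.5 to 17995.5 CPM in naive mice and 5932.9 to 12553.0 CPM in DMM mice. With edgeR and limma-voom, 4 and 5 late neutrophil genes and 3 and 2 basophil and mast cell genes were lower. The part of these cells in the lower Cd3d and Nkg7 was not tested.

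The ratio of Nkg7 to the 6 early granulocyte genes varied over the 8 libraries by between 1.4-fold, for Prtn3, and 2.14-fold, for Cebpe. For every 100 normalised counts of Prtn3, the gene of proteinase 3, there were 11.7 to 15.9 of Nkg7 in naive mice and 12.9 to 16.5 in DMM mice. For every 100 of Elane, the gene of neutrophil elastase, there were 4.8 to 6.77 in naive mice and 4.48 to 8.52 in DMM mice. The naive and DMM ranges of the ratio overlapped for all 6 genes. Such overlap follows from their log2 fold changes, -1.12 to -0.90, which were close to that of Nkg7 (-0.96). The erythroid gene Klf1 also had -0.96, so a like fall was not particular to granulocyte genes. The cells that the Nkg7 RNA came from were not tested. Prtn3 itself had 1204.8, 1611.1, 1505.9 and 1314.1 normalised counts in naive mice and 630.3, 582.6, 630.6 and 844.8 in DMM mice, with DMM mouse 4 again the highest of its group. Ctsg, the gene of cathepsin G, had 923 ± 96.9 (SD, n = 4) in naive mice and 424 ± 150 in DMM mice (log2 fold change -1.12, DESeq2 adjusted p = 8.51e-06).

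**Figure D5:**
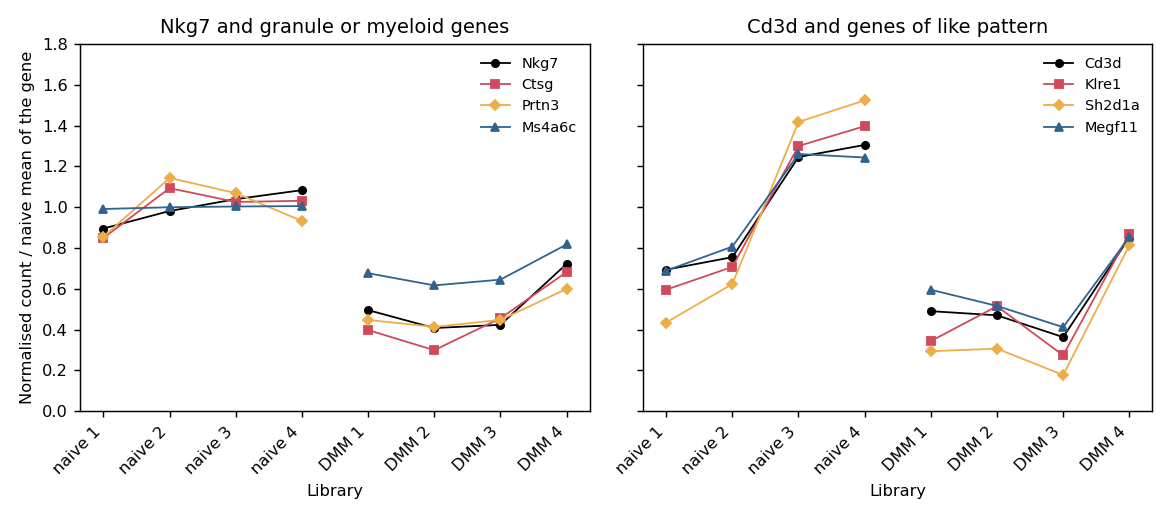
Normalised count of each gene divided by its own naive mean in each library, with the genes of both panels chosen after their values were seen. Nkg7 is shown with Ctsg, Prtn3 and Ms4a6c (left), and Cd3d with Klre1, Sh2d1a and Megf11 (right). Lines join the libraries of a group only to guide the eye. On the left every DMM point is below every naive point of the same gene, and on the right naive mice 3 and 4 and DMM mouse 4 stand above the rest of their group. Megf11 and Sh2d1a were picked for their high correlation with Cd3d over these libraries, and Ms4a6c for that with Nkg7. Their likeness was therefore fixed in advance.

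Of the other immune lists, 0 of 8 B cell genes, 0 of 8 macrophage genes and 0 of 8 dendritic cell genes were called by DESeq2, edgeR or limma-voom (1, 1 and 2 genes had an unadjusted DESeq2 p under 0.05), with median log2 fold changes of 0.39, -0.03 and -0.04. The B cell list held 425 to 554 CPM in naive mice and 917, 1063.0, 476 and 443 CPM in DMM mice, so DMM mice 1 and 2 stood apart from mice 3 and 4. Of 18 pan-leukocyte genes, 5 were called lower, with a median log2 fold change of -0.53. A positive value was seen for 0 of the 18, and 17 had an unadjusted DESeq2 p under 0.05. Naive and DMM values did not overlap for 14 of the 18, beside 22.2% of all genes tested. The list held 2874.6 to 3577.4 CPM in naive mice and 2231.5 to 2874.1 CPM in DMM mice. Relative to the pan-leukocyte genes, the log2 fold changes were -0.42 for Cd3d and -0.46 for Nkg7, neither of which passed, and 0.87 for Cd3g (DESeq2 adjusted p = 0.0206). With those factors, the median change over all genes of mean 10 or more moved from -0.01 to 0.51, so most genes shifted upwards with these factors. Minus this median, the values were -0.93 for Cd3d, -0.97 for Nkg7 and 0.36 for Cd3g. With the size factors used elsewhere they were -0.87, -0.95 and 0.36. New size factors shift all genes by nearly the same amount, so near-equal values were fixed in advance. The subtraction therefore does not test the call of Cd3g.

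Chondrocyte genes, which the label of the tissue names, were abundant, and 5 of 9 tested genes were higher in DMM mice (median log2 fold change 0.88). Their summed level was 5245.6 to 9707.9 CPM in naive mice and 9238.5 to 13905.6 CPM in DMM mice. Matn1 did not exceed 12.0 normalised counts in any library.

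The genes whose pattern over the 8 libraries was most like Cd3d were Megf11, Sh2d1a and Gm14343, with Pearson correlations of log2 normalised counts of 0.993, 0.993 and 0.990. Sh2d1a encodes the adapter SAP of T and NK cells. It had 68.6, 98.4, 223.7 and 240.4 normalised counts in naive mice and 46.4, 48.4, 28.0 and 128.2 in DMM mice, so naive mice 3 and 4 and DMM mouse 4 were high, as they were for Cd3d. For Sh2d1a, 26.15% of the 31-base words also occur in other genes. The genes most like Cd4 were Tmem143, Immp1l and Zdhhc4, with correlations of 0.947, 0.922 and 0.904. These are descriptions over libraries that share 2 groups, a scaling and a depth range.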

How the data were processed

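RNA-seq was performed on medial knee cartilage caps of 4 naive and 4 DMM mice. The deposited table holds estimated counts per gene, which the authors made with Trimmomatic, Kallisto and Tximport against a reference they name as GRCm38; reads that fit several genes are divided, so 39.2% of values are not whole. The labels name GRCh38, a human build, and another library kit than the methods, which was not resolved. Separate mice made up the replicates, grouped by label.

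Estimated counts were rounded, Tximport length offsets were not used, and DESeq2 1.42.0 (R 4.3.3, Wald test with default size factors, independent filtering and Cook's filter) was fitted to all genes without covariates. Adjusted p-values cover all genes tested. Normalised counts are divided by size factors, CPM by library total, and per-kilobase values by the longest coding transcript in GENCODE vM21. Symbols were found for 48855 identifiers. Intervals are 95% Wald intervals. The models were tested on simulated data. Alternatives were edgeR 4.0.16, limma-voom 3.58.1, other size factors, filters and thresholds, the replicate number as a block, and each library left out.

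Named were the 10 genes, all receptor chain genes, called genes of the other T and NK lists (with fewer than 3 calls, the 3 highest by mean), and the 3 genes most correlated with Cd3d and Cd4 (mean of at least 50, pseudocount 1). Lcp2 and Ubash3a were named as well because they missed only the fold threshold. The members and lists were chosen with earlier results of these data known. RefSeq promoters matched 8 of the 10 genes; Cd4 and Cd8b1 had none.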

Additional observations from a re-analysis of the deposited data

Results flagged for a closer look

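Within groups of 4 mice, a value counted as far from the others when its gap to the nearest exceeded Dixon's 95% limit for the share of the whole range. Of 92 groups checked 5 passed, where chance alone gives about 4.6. In naive mice, Cd8a was low in mouse 2, with 29.3 normalised counts where the others had 36.3 to 36.9. Gzma was high in naive mouse 4, with 38.6 normalised counts where the others had 21.1 to 22.6. Gzmb was low in DMM mouse 1, with 9.12 normalised counts where the others had 10.7 to 10.8. Tcrg-C2 was high in naive mouse 1, with 10.6 normalised counts where the others had 3.99 to 4.54. The erythroid genes were high in DMM mouse 3, with a summed level of 12553.0 CPM where the other DMM mice had 5932.9 to 6471.7 CPM.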

How the results depend on the processing

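The number of T and NK cell genes called was 2, and it was 1 (Nkg7) with edgeR, 1 (Nkg7) with limma-voom, 1 (Cd3g, higher) with pan-leukocyte size factors and 1 to 2 when libraries were left out in turn. For the receptor chains it was 0, 1 (Trdc, higher) with pan-leukocyte factors, and 0 without any library. For receptor signalling it was 3 (2 higher and 1 lower), 2 (both higher) with edgeR, limma-voom or total count scaling, 4 (all higher; Cd27 and Themis joined and Lat left) with pan-leukocyte factors, 5 with no fold threshold (2 higher and 3 lower) and 2 to 5 with libraries left out (Lck and Ubash3a joined without naive mouse 4 or DMM mouse 1). For the T cell factors it was 2, 4 with pan-leukocyte factors (Bcl11b and Eomes joined) and 2 without any library. For the NK and cytotoxic list it was 2, 1 with edgeR, limma-voom, total count scaling, no filter on low counts or pan-leukocyte factors (Ctsw, higher, in the last), and 1 to 2 with libraries left out. Over all genes it was 2429 (1377 higher and 1052 lower), 6078 with pan-leukocyte factors (6001 higher and 77 lower), 4010 with no fold threshold (2021 higher and 1989 lower) and 1858 to 2842 with libraries left out. Pan-leukocyte factors raised the median of all genes from -0.01 to 0.51, so the sign turned for Cd3e (0.17), Cd4 (0.38), Gzma (0.13), Gzmb (0.05) and Ncr1 (0.14). Minus that median these values were -0.34, -0.12, -0.38, -0.46 and -0.37, beside -0.33, -0.14, -0.38, -0.47 and -0.39 with the main factors. A shift common to all genes fixes this likeness in advance, so it does not test the genes. Total count scaling turned the sign of Cd4 (0.01). The log2 fold change of Cd8b1 lay between -0.20 (without DMM mouse 1) and 0.29 with libraries left out. None of these 6 genes was called under any of these settings, though some settings gave them no adjusted p. Gzmb received none in the 8 fits that left out a library, and Cd8b1 and Ncr1 received none in some of those fits. The cause was not tested, except that pan-leukocyte factors by construction set each change relative to leukocyte genes. Of 272 recomputed log2 fold changes of named genes, 240 kept direction and call, 24 lost the call, 1 gained it (Cd3g, pan-leukocyte factors) and 7 turned sign, 5 of them with pan-leukocyte factors.

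The replicate numbers were not taken as pairs, since different mice were sampled at day 0 and day 42. The deviations of same-numbered mice correlated at 0.0498, 0.058, -0.119 and 0.117. These were not compared with differently numbered mice, so they cannot tell whether same-numbered mice shared a batch. With the replicate number as a block, 2081 genes were called, and 2 of the T and NK cell genes, Cd3d and Nkg7. Depth limited the low genes: Gzmb, Cd8b1 and Ncr1 had between 8.3 and 39.0 estimated counts per library, and the 95% interval of the Gzmb log2 fold change ran from -1.36 to 0.39.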

Other observations

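The genes described here were chosen after their values were seen, and no cause was tested. Kcnj2, which encodes an inward-rectifier potassium channel, followed Cd3d over the 8 libraries (Pearson r = 0.989), with 576.9, 650.5, 1036.0 and 921.8 normalised counts in naive mice and 384.8, 408.5, 313.6 and 635.4 in DMM mice. Naive mice 3 and 4 and DMM mouse 4 were high for both genes. The odorant receptor gene Olfr788, with 60.7, 98.4, 150.9 and 181.4 normalised counts in naive mice and 37.3, 32.2, 18.1 and 89.3 in DMM mice, was also among the 10 genes most like Cd3d (r = 0.985), as were Olfr1039 (r = 0.983) and the vomeronasal receptor gene Vmn1r224 (r = 0.986).

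Odorant and vomeronasal receptors are known from sensory neurons of the nose. Their 1317 genes with a count held 2000.5, 1567.0, 2802.2 and 3002.7 CPM in naive mice and 2153.4, 2050.4, 1765.1 and 2653.8 CPM in DMM mice. The same 3 libraries in which Cd3d was high in its group were the highest of their groups for this sum. Of the 405 receptor genes tested, 30 (7.41%) were lower and 1 (0.247%) was higher in DMM mice, beside 5.92% lower and 7.75% higher of all genes tested. The median log2 fold change was -0.18, beside -0.02 for all genes tested.

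The genes outside the lists most like Nkg7 were Ms4a6c, of the MS4A family of membrane proteins, 1810009A15Rik and Nxpe1-ps, with Pearson r of 0.992, 0.981 and 0.980. Ms4a6c had 585.7, 590.7, 592.9 and 594.1 normalised counts in naive mice and 399.7, 364.4, 381.1 and 482.9 in DMM mice. Its naive values were nearly equal, and DMM mouse 4 was the highest of its group, as for Nkg7. For Ms4a6c, 58.12% of the 31-base words also occur in other genes.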
